A study of Phelipanche ramosa with 8 samples.

Results

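Of the 52543 contigs with a sense probe on the *Phelipanche ramosa* microarray, 7 formed the group of auxin signalling and transport contigs described here. They were chosen by their annotation in the study's list of hormone-related contigs, as the contigs named after the Arabidopsis genes IAA19 (Pram_33147), CAND1 (Pram_19010 and Pram_00078), SEU (Pram_00542), ABCB4 (Pram_08276), AGD3 (Pram_06969) and AIR12 (Pram_04752). The study had drawn this list from genes that it called changed by root exudates. Each contig had a sense probe, and each had a partner probe of the complementary strand, called antisense. All 14 probes were found on every array. No sequence of the probes or contigs was used here, so that the names rest on the annotation alone, and contigs with the same name may be members of a family, alleles or parts of 1 gene.

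Wild-type seeds of *P. ramosa*, a root parasite that lives on its hosts, were conditioned, germinated in the dark for 4 days with the synthetic germination stimulant rac-GR24 and then kept for 12 h either with root exudates of the host *Brassica napus* or in control medium without exudates. All samples had therefore been exposed to rac-GR24, and a sample is a pool of whole germinated seeds, so that radicle and seed tissues were not separated. There were 4 control and 4 exudate samples on 4 two-colour arrays, each array holding 1 sample of each group. The control was labelled with the dye Cy5 and the exudate sample with Cy3 on arrays 1 and 2, and the dyes were the other way round on arrays 3 and 4. The labels describe 4 replicates grown independently and the methods describe 2 biological replicates in a dye-switch design. With only 2 biological replicates, the arrays would include dye swaps of the same material, and treating the arrays as 4 replicates would not be warranted. When dye-swapped arrays were averaged, in either of the 2 possible ways, the 5 contigs called below all remained DEGs in limma, with adjusted p-values up to 0.0196 and up to 0.0480, although these fits have only 2 values per probe.

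Auxin works by removing repressors. In the absence of auxin, Aux/IAA proteins bind auxin response factors and hold down their target genes, and auxin makes the Aux/IAA proteins bind to the F-box protein of an SCF ubiquitin ligase, which marks them for degradation. CAND1 exchanges the F-box subunits of such ligases by binding their cullin, SEU is a transcriptional co-regulator that was linked to auxin response in Arabidopsis flowers, ABCB4 moves auxin across the plasma membrane of root cells, AGD3 acts in vesicle traffic, and AIR12 is a cytochrome b protein of the plasma membrane first found among genes induced by auxin in cultured roots. Auxin and cytokinin together set the growth and differentiation of the root apex, the site where early haustorial structures form in this parasite. The comparison asks which of these contigs differed in transcript level after 12 h with exudates.

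The sense probes of 6 of the 7 contigs were higher with exudates than in control on all 4 arrays, and the remaining contig, CAND1 Pram_19010, was lower on all 4. With median centring in place of loess 2 contigs were higher and 1 lower on all 4 arrays, and with the processed signals of the scanner software 4 and 1, while the mean ratio of every contig kept its direction. Among all 30641 sense probes tested, 10.7% were higher and 29.6% were lower on all 4 arrays. Of the 7 contigs, 6 were tested, and 5 of them were differentially expressed genes (DEGs), that is, in the limma fit over all tested sense probes their adjusted p was under 0.05 and their level with exudates was 1.5 times the control level or more, or 0.75 times or less. SEU, AGD3, CAND1 Pram_00078 and AIR12 rose, CAND1 Pram_19010 fell, and ABCB4 was not called. Over all tested sense probes 17.9% were DEGs, 5.12% higher and 12.8% lower, so that 4 of 6 higher contigs stood beside a background of 5.12% and 1 of 6 lower contigs beside 12.8%. CAND1 Pram_00078, one of the 4, was tested only because its exudate channels, where it is high, were all above background. With both groups required to be above background on all 4 arrays, 4 contigs were tested, of which 3 were higher and 1 lower. The median log2 fold change of the 6 tested contigs was 0.74 and that of all tested sense probes was -0.14. IAA19, CAND1 Pram_19010 and SEU had been chosen by the study for their change in these same samples. The other contigs came from the same list, which the study drew from genes called changed in these samples or at a later time point. The counts are therefore not independent evidence of change or direction for any of the 7 contigs. In whole germinated seeds, a fall can come from fewer cells of a type or from less RNA per cell, and a rise from more of either. These cannot be told apart.

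Without array 1, 0 of the 5 contigs were DEGs in limma, with adjusted p-values between 0.0575 and 0.191, while all 5 kept their direction and an unadjusted p below 0.05. The mean log2 ratios without array 1 were -0.97 for CAND1 Pram_19010, 0.68 for CAND1 Pram_00078, 0.83 for SEU, 0.61 for AGD3 and 0.65 for AIR12, against -1.03, 0.76, 0.96, 0.84 and 0.73 with all arrays. The count over all sense probes fell with it, from 5491 to 677. Without array 2, array 3 or array 4, the number of DEGs among the contigs was 4, 3 and 4.

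**Figure D1:**
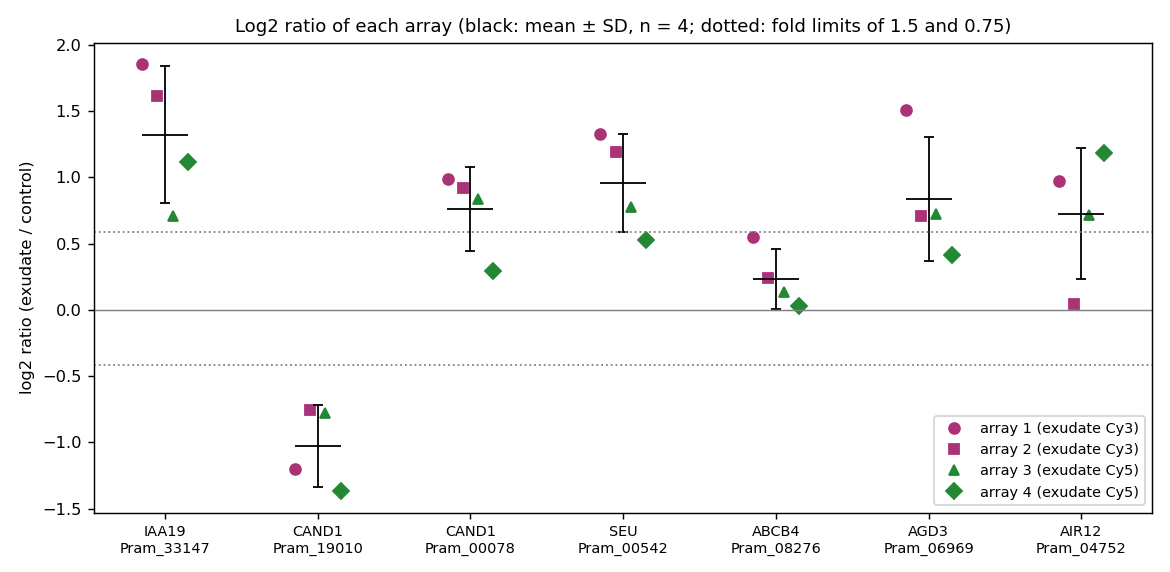
Log2 ratio of exudate over control for the sense probe of each contig on each of the 4 arrays, with the mean and SD in black, the dye of the exudate sample by colour and the fold limits of 1.5 and 0.75 as dotted lines. The points of CAND1 Pram_19010 all lie below 0 and those of the other 6 contigs above 0, and array 1 gives the highest ratio for IAA19, CAND1 Pram_00078, SEU, ABCB4 and AGD3.

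The arrays differed in depth, here taken as how many probes stood out from the background. The share of sense probes well above background was between 60.4% and 69.3% in the control channels and was 57.5%, 65.9%, 37.5% and 57.2% in the exudate channels of arrays 1 to 4, with the lowest share on array 3. The median local background was between 148 and 157 intensity units in Cy5 and between 49 and 51 in Cy3. With 4 arrays, the number of arrays bounds the precision of every value. The median absolute difference between the log2 ratios of the 2 spots of a probe was 0.146 for the 7 contigs and 0.124 for all tested sense probes. Levels are compared between groups for 1 probe at a time and not between probes. As a check of the labelled tissue, all 6 probes of seed storage cupins (CRA1 and PAP85) were well above background on all 4 control arrays. All 6 also fell with exudates and were lower on all 4 arrays, with mean log2 ratios from -2.23 to -1.17 and limma adjusted p-values from 0.000337 to 0.00517. Among all tested sense probes 29.6% were lower on all 4 arrays and 12.8% were DEGs that fell. The cupins come from the same list of genes that the study called changed, so that their falls are not independent evidence. Of the 7 contigs, CAND1 Pram_19010 also fell, while the others were higher with exudates. A link between the falls of the cupins and the changes described below was not tested.

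IAA19 is an Aux/IAA repressor, and genes of this family are themselves rapidly induced by auxin in Arabidopsis. Its contig Pram_33147 was not well above background in any control channel and was well above it in the exudate channels of arrays 1, 2 and 4. The raw median signals of the control were 153, 162, 70.0 and 67.5 intensity units on arrays 1 to 4, beside local backgrounds of 165, 160, 51.5 and 49.5. The exudate signals were 195, 224, 191 and 238 units over backgrounds of 51.0, 51.0, 153 and 161. The control signals were 0.92, 1.01, 1.36 and 1.36 times their local background, and the exudate signals 3.82, 4.39, 1.25 and 1.48 times. By this measure the exudate signal stood out clearly on arrays 1 and 2, where exudate was in Cy3. On array 4 the exudate ratio to background was close to that of the control, and on array 3 it was below it. The local background was higher in Cy5 than in Cy3 on every array, so that this measure does not rank exudate against control. The normalized log2 ratios were 0.71 on array 3 and 1.11 on array 4. After normalization of the single channels, the log2 levels were 5.63, 6.08, 6.19 and 6.01 in control (mean 5.98 ± 0.24, SD, n = 4) and 7.48, 7.69, 6.89 and 7.13 with exudates (7.30 ± 0.36). The groups did not overlap. In 4.57% of all tested sense probes the exudate levels were likewise all above the control levels.

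Since no control channel measured IAA19, its control level is only a bound. With the processing used here, the level with exudates was 1.83-fold higher than this bound. The value includes the exudate channel of array 3, which was not above background. It sets the mean exudate level against the higher of the dim signal itself and the lowest signal well above background on each array. That lowest signal is an extreme over all probes, so that 1.83 is not a strict lower limit. The antisense probe of IAA19, above background in no channel, also had a mean log2 ratio of 0.44. The measured log2 ratios were 1.85, 1.61, 0.71 and 1.11, with a mean of 1.32 ± 0.51 (SD, n = 4), and the contig was not tested because neither group was above background on all 4 arrays. On array 3, 1 of its 2 exudate spots was well above background and the log2 ratios of these spots were 0.42 and 0.99. When no filter was set on dim probes, IAA19 was a DEG in limma with an adjusted p of 0.0341, on a ratio that has a bound and not a level in its denominator. Its mean log2 ratio ranged from 0.85 without background correction to 3.45 with the processed signals of the scanner software.

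**Figure D2:**
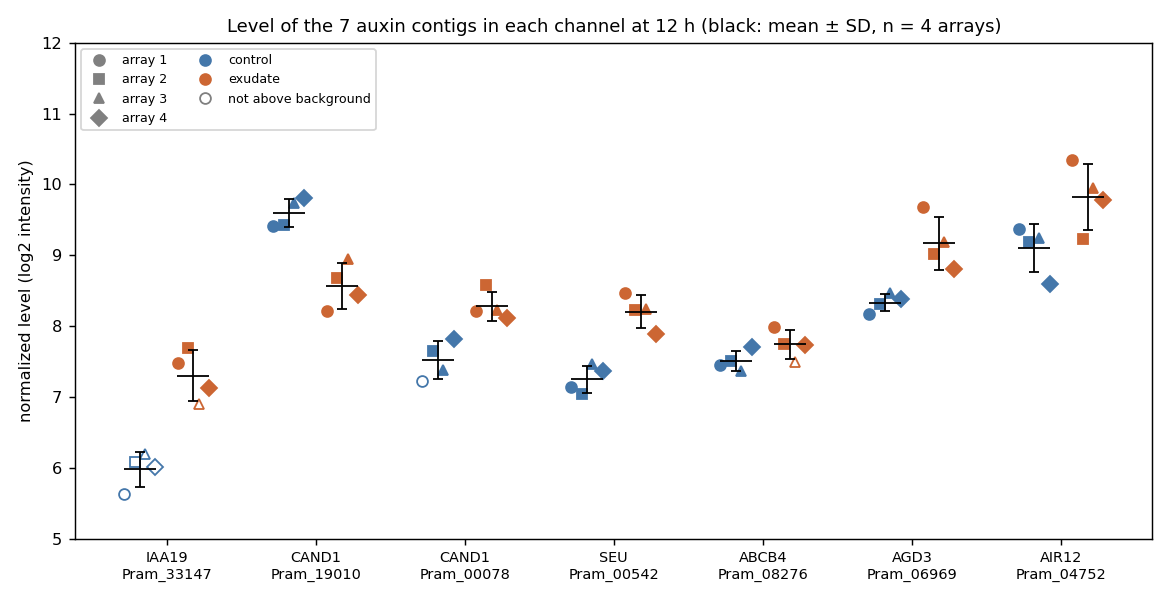
Normalized log2 level of each contig in the control (blue) and exudate (orange) channel of each array, with the mean and SD in black and open symbols for channels not well above background. IAA19 is open in all 4 control channels, and control and exudate symbols overlap in height only for ABCB4 and AIR12.

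CAND1, the exchange factor of SCF ligases, was represented by contigs that moved in opposite directions. Pram_19010 was well above background in all 8 channels. Its log2 levels were 9.41, 9.43, 9.73 and 9.80 in control and 8.21, 8.68, 8.95 and 8.43 with exudates, so that every exudate sample was below every control sample. In 15.1% of all tested sense probes the exudate levels were likewise all below the control levels. The log2 ratios were -1.20, -0.75, -0.78 and -1.37. The mean was -1.03 ± 0.31 (SD, n = 4), with a limma standard error of 0.19 and an adjusted p of 0.00717, and this is 0.491 times the control level. The mean ratio was -0.98 on the arrays with exudate in Cy3 and -1.07 on those with exudate in Cy5. It was the only one of the 7 contigs that remained a DEG at an adjusted p limit of 0.01.

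Pram_00078 was well above background in 3 of 4 control channels and in all 4 exudate channels. On array 1, 1 of its 2 control spots was above background. Its log2 levels were 7.23, 7.65, 7.38 and 7.82 in control and 8.21, 8.57, 8.22 and 8.11 with exudates, again without overlap. The log2 ratios were 0.99, 0.92, 0.84 and 0.29, so that array 4 gave the smallest rise. The mean was 0.76 ± 0.32 (SD, n = 4; limma standard error 0.19, adjusted p = 0.0223), a 1.69-fold rise. The call was lost without array 1, array 2 or array 3, with adjusted p-values in limma of 0.135, 0.0620 and 0.0601, while the mean log2 ratio was 0.68, 0.71 and 0.73.

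The log2 ratio of Pram_00078 exceeded that of Pram_19010 by 2.19, 1.68, 1.62 and 1.66 on arrays 1 to 4. The mean difference was 1.79 ± 0.27 (SD, n = 4). The difference had the same sign on 4 of 4 arrays, and an exact permutation test over the signs of the 4 differences gave a 2-sided p of 0.13, the smallest that 4 arrays allow, so that this test could not pass 0.05. Both ratios come from the same hybridizations, so that a shift of a whole array cancels in this difference. Leaving out 1 array moved the mean difference only between 1.65 and 1.84. It was 1.62 in the deposited log2 values and 2.46 with the processed signals of the scanner software. On array 1, which gave the largest difference, Pram_00078 had its highest ratio and Pram_19010 a ratio that was lower only on array 4.

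**Figure D3:**
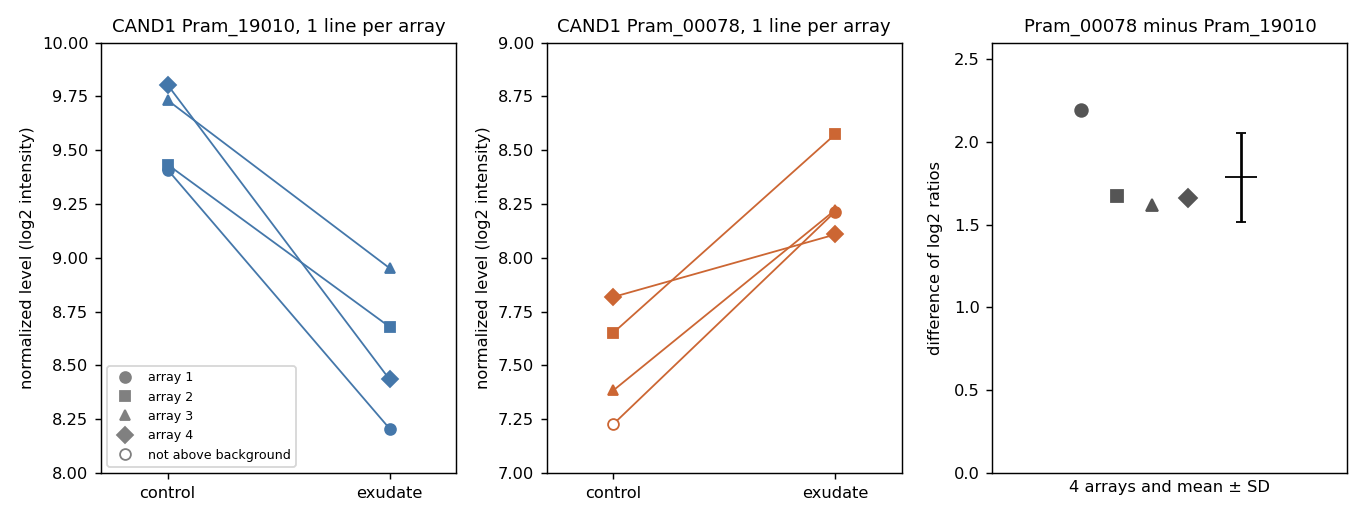
Normalized log2 levels of the CAND1 contigs in the control and exudate channels, with 1 line per array, and the difference of their log2 ratios on each array with its mean and SD. All 4 lines fall for Pram_19010 and all 4 rise for Pram_00078, and the difference lies between 1.62 and 2.19.

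CUL1, the cullin that CAND1 binds, also had a contig on the list, Pram_09208. It was above background in all 8 channels, its log2 ratios were -0.48, 0.11, -0.03 and -0.25, and the mean of -0.16 ± 0.25 (SD, n = 4) was not called (limma adjusted p = 0.573). The 95% interval of this mean ran from -0.57 to 0.24.

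SEU acts with LEUNIG-type corepressors in Arabidopsis. Its contig Pram_00542 was well above background in all 8 channels. The log2 levels were 7.14, 7.04, 7.46 and 7.36 in control and 8.47, 8.23, 8.24 and 7.89 with exudates, and the groups did not overlap. The log2 ratios were 1.33, 1.19, 0.78 and 0.53. SEU thus rose by 0.96 ± 0.37 on the log2 scale (SD, n = 4; limma standard error 0.20, adjusted p = 0.0107), a 1.94-fold change with a 95% interval from 0.52 to 1.39 on the log2 scale. The ratio was higher on both arrays with exudate in Cy3 (mean 1.26) than on both with exudate in Cy5 (mean 0.65). With the dye as a covariate SEU remained a DEG, with an adjusted p of 0.0166 in limma. Its spots agreed least among the 7 contigs, and on array 3 the log2 ratios of the 2 spots were 0.35 and 1.20.

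ABCB4 is a transporter of the ABC family that carries auxin in Arabidopsis roots. The contig Pram_08276 was above background in all 4 control channels and in 3 of 4 exudate channels, array 3 being the exception. The log2 levels were 7.44, 7.51, 7.36 and 7.70 in control and 7.99, 7.75, 7.49 and 7.73 with exudates, so that the groups overlapped. The log2 ratios of 0.55, 0.24, 0.13 and 0.03 were all above 0 but small. The mean of 0.24 ± 0.23 (SD, n = 4) was not called, with an adjusted p of 0.397 in limma and a 95% interval from -0.17 to 0.64. A 1.5-fold rise, which is 0.58 on the log2 scale, lay inside this interval.

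AGD3 is a GTPase-activating protein for ARF GTPases, the small G proteins of vesicle budding, and in Arabidopsis it is needed for an ordered vein pattern. The contig Pram_06969 was well above background in all 8 channels. The log2 levels were 8.17, 8.31, 8.46 and 8.39 in control and 9.68, 9.01, 9.18 and 8.80 with exudates. The control levels were close together and all below the exudate levels. The log2 ratios were 1.51, 0.71, 0.72 and 0.42, and array 1 gave the largest ratio by a wide margin. AGD3 rose by 0.84 ± 0.47 on the log2 scale (SD, n = 4; limma standard error 0.21, adjusted p = 0.0216), or 1.79-fold. Without array 1 the mean was 0.61 and the adjusted p 0.151.

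A further contig annotated as AGD3, Pram_00490, was dim. It was above background in 2 of 4 control and 3 of 4 exudate channels and was not tested. Its log2 ratios were 0.94, 0.82, 0.34 and -0.01 (mean 0.52 ± 0.44, SD, n = 4). The ratio of Pram_06969 exceeded that of Pram_00490 by 0.57, -0.11, 0.39 and 0.43, with a mean of 0.32 ± 0.30, and the exact permutation test over the 4 signs gave a 2-sided p of 0.25. Like the test of the CAND1 contigs, this test could not pass 0.05 with 4 arrays. These were the 2 pairs of contigs compared, and the exact p-value of both was 0.25 after Benjamini-Hochberg adjustment over them.

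AIR12 takes part in electron transfer at the plasma membrane. The contig Pram_04752 was well above background in all 8 channels. The log2 levels were 9.37, 9.18, 9.24 and 8.60 in control and 10.34, 9.22, 9.96 and 9.78 with exudates, and the exudate sample of array 2 lay below the control sample of array 1 and of array 3. The log2 ratios were 0.97, 0.04, 0.71 and 1.18, so that array 2 showed almost no difference. AIR12 rose by 0.73 ± 0.50 on the log2 scale (SD, n = 4; limma standard error 0.22, adjusted p = 0.0381), a 1.65-fold change and the highest adjusted p of the 5 calls. The adjusted p in limma was 0.191 without array 1, 0.0769 without array 3 and 0.13 without array 4, and 0.0606 with the dye as a covariate. Its ratio was lower where the exudate was in Cy3 (mean 0.51) than where it was in Cy5 (mean 0.95), the reverse of the order seen for IAA19, CAND1 Pram_00078, SEU, ABCB4 and AGD3.

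The antisense partner probes were mostly dark. For IAA19, CAND1 Pram_19010 and ABCB4 no antisense channel was well above background. The partner of CAND1 Pram_00078 was above it in 2 control channels and 1 exudate channel, and the partners of SEU and AGD3 were above it in 1 exudate channel each and in no control channel. Only the partner of AIR12 was well above background in all 8 channels and was tested. Among all 16075 antisense probes tested, 8.59% were called, 8.41% higher and 0.18% lower, and 0 of the 7 partner probes were called. The unadjusted p of the single partner tested was 0.672 in limma.

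The antisense probe of AIR12 gave raw median signals of 2376, 2895, 2685 and 4315 intensity units in control and 1880, 2781, 1109 and 2236 with exudates. After normalization the levels were 10.90, 11.16, 11.39 and 11.49 in control and 10.93, 10.90, 11.55 and 11.19 with exudates, and the groups overlapped. The log2 ratios were 0.03, -0.26, 0.17 and -0.30, with a mean of -0.09 ± 0.23 (SD, n = 4; limma adjusted p = 0.819; 95% interval -0.55 to 0.37). The sense probe of AIR12, with raw control signals of 883, 765, 673 and 569 intensity units, was called and its antisense probe was not. The difference between the strands was not tested. The sense strand is a prediction of the study, and which of these probes reports the AIR12 transcript was not tested. The antisense ratios of IAA19 were 0.66, 0.36, 0.46 and 0.26 and those of SEU 0.75, 0.14, 0.49 and 0.11. These were all above 0, as they were for 31.3% of all tested antisense probes, whose median log2 ratio was 0.28, and no IAA19 channel of this strand was above background.

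Of the other 17 contigs on the auxin part of the list, 11 were tested, of which 8 rose, 1 fell and 2 were not called, beside 5.12% higher and 12.8% lower of all tested sense probes. The median log2 fold change of the 11 was 1.40, and the values ran from -2.01 to 2.61. The contig that fell was JAR1 (Pram_17697), a member of the GH3 family of enzymes that join hormones to amino acids. The highest values were those of the FQR1 contigs, which encode quinone reductases and lie at the top of the plot of the 24 auxin contigs. The list had been drawn up by the study from these samples and from a later time point not analysed here, so that these counts are not independent evidence of direction.

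Further Aux/IAA repressors on the list were IAA16 and IAA29. IAA16 (Pram_25081) had log2 ratios of 1.12, 1.59, 2.25 and 0.64, a mean of 1.40 ± 0.69 (SD, n = 4; limma adjusted p = 0.00544), and was above background in all 8 channels. IAA29 (Pram_34452) had log2 ratios of 0.42, 1.16, 0.45 and 0.59, a mean of 0.65 ± 0.35 (SD, n = 4; limma adjusted p = 0.0398). It was above background in all 4 control and in 3 of 4 exudate channels, and the levels of the groups overlapped. With IAA19, all 3 Aux/IAA contigs on the list were therefore higher with exudates on all 4 arrays, and both that were tested were DEGs. The same 3 contigs were higher on all 4 arrays with median centring and with the processed signals. In the deposited values paired by replicate number 2 of them were. Among all tested sense probes 10.7% were higher on all 4 arrays, and the control level of IAA19 is only a bound. ARF19 (Pram_08267), an auxin response factor of the kind these repressors bind, was above background in 1 of 4 control and 3 of 4 exudate channels and was not tested. Its log2 ratios were 1.00, 1.11, 0.25 and 0.47.

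Auxin metabolism was represented by TAR2 and ILR1. TAR2 (Pram_32122), an aminotransferase of auxin synthesis, had log2 ratios of 1.23, 1.80, 2.82 and 2.15 and rose by 2.00 ± 0.66 on the log2 scale (SD, n = 4; limma adjusted p = 0.000687), or 4.01-fold. ILR1 (Pram_28897), a hydrolase that frees auxin from amino acid conjugates, had log2 ratios of 0.00, 0.48, 0.68 and -0.22 and was not called (mean 0.23 ± 0.42, SD, n = 4; limma adjusted p = 0.454). Without array 1, 7 of the 11 tested other auxin contigs were DEGs, beside 2.21% of all tested sense probes, and how this compares with the signalling and transport contigs was not tested.

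**Figure D4:**
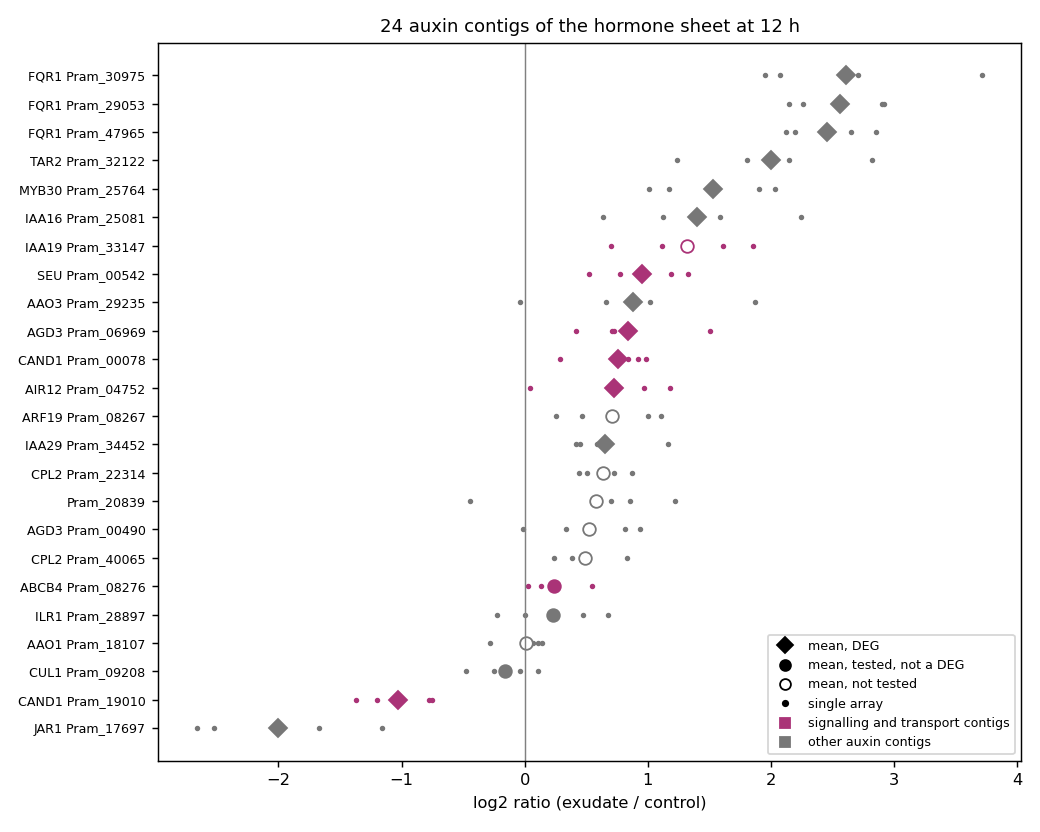
Log2 ratio of exudate over control at 12 h for the 24 auxin contigs of the hormone list, with small points for the 4 arrays and large symbols for the mean (diamond, DEG; filled circle, tested and not called; open circle, not tested). The signalling and transport contigs in purple lie between -1.03 and 1.32, inside the range of the other auxin contigs in grey, which runs from -2.01 to 2.61.

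The contigs were also set beside the other tested contigs of the hormone list, 56 in number, by the root mean square difference of the log2 ratios over the 4 arrays, as a description. Nearest to CAND1 Pram_19010 was PKT3 (Pram_46897), a thiolase of beta-oxidation, with a difference of 0.228 and ratios of -1.17, -0.51, -0.97 and -1.04. Nearest to CAND1 Pram_00078 was PRE1 (Pram_42418), a small helix-loop-helix protein, at 0.235, with ratios of 0.80, 0.57, 1.03 and 0.13. ABCB4 lay closest to EIN2 (Pram_00052), a central component of ethylene signalling, at 0.161, which was the smallest distance found. SEU lay closest to NTF2 (Pram_02271) at 0.362, AGD3 to AAO3 (Pram_29235) at 0.324 and AIR12 to Pram_28180 at 0.394. These values rest on 4 arrays that all probes share.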

How the data were processed

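The authors deposited the output of Agilent Feature Extraction 11.5.1.1 for each array, with median intensity, local background, processed intensity and flags per spot on a linear scale, and a table of log2 values of the sense probes whose scale, centring and normalization are not given in the sources used here (column medians 7.49 to 7.99). The contigs and gene lists were chosen with earlier results of these data known. The submitters' notes name limma, with no version. The exudate columns 1, 2, 3 and 4 of the deposited table followed the exudate channels of arrays 3, 4, 1 and 2, with r of at least 0.99. The text of the labels gives diluted exudates and that of the methods crude exudates.

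The software was R 4.3.3 with limma 3.58.1. Median intensities were background corrected (normexp, offset 50) and loess normalized within arrays (span 0.3, 4 iterations, control spots without weight). Control and outlier-flagged spots were left out and spots of a probe averaged. A probe was tested if 1 group or both had it well above background on all 4 arrays, on the 4 log2 ratios with lmFit and eBayes, with Benjamini-Hochberg adjustment within sense and within antisense probes. Intervals are limma's 95% intervals. The fold limits follow the main text of the study, which elsewhere gives them on the log2 scale, a reading tried as an alternative that leaves 1 of the 5 DEGs among the contigs. The p limit of 0.05 was set here. Single-channel levels and bounds are loess and Aquantile values. The shared array pairs the samples and the ratio is the blocked value. The deviations of both channels from their group means had an r of 0.22, 0.24, 0.75 and -0.24 on arrays 1 to 4. The highest r of each control channel with an exudate channel of another array was 0.30, 0.66, -0.32 and 0.19. Only on array 3 did the exudate channel of the same array match best. All 14 probes are named in full. Of the other auxin contigs, those with a role in auxin response or metabolism are named in full, and JAR1 and FQR1, which give the lowest and highest values, were named after their values were seen. In simulated data over 30641 sense probes for exudate against control, 200 probes were raised or lowered by 1 on the log2 scale, of which 182 were called correctly and 0 with the opposite sign, beside 13 false calls. The simulated noise was independent between arrays and had the same SD for all probes, so that these rates need not hold for the measured data. Alternatives changed the background correction, signal, normalization, filter, dye term, pairing, thresholds and arrays.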

Additional observations from a re-analysis of the deposited data

Results flagged for a closer look

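Of 46 groups of 4 values examined by Dixon's test, the difference between the CAND1 contigs was the 1 with a value far from the others. The log2 ratio of Pram_00078 exceeded that of Pram_19010 by 2.19 on array 1 and by 1.62 to 1.68 on the other arrays, a gap of 0.900 of the whole range beside a critical value of 0.829. Chance marks about 1 in 20 such groups. Without array 1 the mean difference was 1.65.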

How the results depend on the processing

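No call reversed its direction under any alternative run. The mean of the CAND1 difference lay between 1.54 and 2.46 and antisense calls stayed at 0 wherever antisense probes were measured. The 5 DEGs among the contigs became 1 with median centring, an adjusted p below 0.01 or fold limits read on the log2 scale, and in each case it was CAND1 Pram_19010. They became 0 in the deposited log2 values with the replicate block by number and 0 without a block, as did the 9 DEGs among the other auxin contigs, while 4 and 5 contigs had an unadjusted p below 0.05 in limma. Paired by the array each column followed, the same values gave 5 DEGs. Leaving out 1 array gave 0 to 4. The 5491 sense DEGs became 3548 without background correction, 2266 without a filter, 3534 with a dye covariate, 2359 with no replicate block, 0 and 1 in the deposited values with the number block and without one (3854 and 4472 at an unadjusted p below 0.05), 1086 at an adjusted p below 0.01, 9490 at an unadjusted p below 0.05, 2854 with log2 fold limits, and 677 to 5536 without 1 array. With no replicate block AIR12 was not called (adjusted p = 0.102) and no other call among the contigs changed. AIR12 lost its call in 13 of its alternatives, Pram_00078 in 8, AGD3 in 7, SEU in 6 and Pram_19010 in 3, some of them only stricter limits. In addition, Pram_00078 was not tested, and so not called, with both groups required to be above background on all arrays. Over all alternatives the mean log2 ratio was 0.31 to 0.96 for AIR12, 0.54 to 1.17 for Pram_00078, 0.47 to 1.01 for AGD3, 0.75 to 1.46 for SEU and -1.43 to -0.89 for Pram_19010.

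The median log2 ratio of all tested sense probes was -0.14, and it was -0.41 with median centring, -0.27 with processed signals and -0.02 with loess per strand. Of the sense DEGs 28.6% were higher, 8.36% with median centring and 47.8% with loess per strand. Relative to that median, AGD3 stood at 0.98, 0.88, 1.28 and 1.00 and Pram_19010 at -0.89, -1.02, -1.02 and -0.87 in these fits. Mean in place of median signals was not run, since the columns used here hold median and processed signals. The cause of these differences was not tested. Signal over background limits IAA19, ABCB4, CAND1 Pram_00078 and all antisense probes except that of AIR12.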
